A study of Homo sapiens with 7 samples.

Results

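The translation initiation and elongation factors described here are the genes whose symbol begins with EIF and a digit from 1 to 6, or with EEF1 or EEF2, with the EIF2AK kinases and EEF1E1 left out. The rule found 66 of the 19978 genes in the count table, on 21 chromosomes. The rule reads the symbol alone. Of the 66, 62 had enough counts to be tested. The 4 that did not were EIF1AY, EIF4E1B and the read-through genes EEF1AKMT4-ECE2 and EEF1E1-BLOC1S5, which the letters of the rule include.

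Protein synthesis begins when eIF2 carries the initiator tRNA to the small ribosomal subunit, eIF1, eIF1A, eIF3 and eIF5 prepare that subunit, and the eIF4 proteins bring it to the capped end of an mRNA. After the start codon is found, eEF1A delivers each aminoacyl-tRNA, the eEF1B subunits (EEF1B2, EEF1D, EEF1G) recharge eEF1A with GTP, and eEF2 moves the ribosome along. Many mRNAs for elongation factors start with a C and a run of pyrimidines, the 5′ terminal oligopyrimidine (TOP) tract, through which mTOR signaling controls their translation and stability.

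All samples were HEK-293, an established human embryonic kidney cell line, so the report describes a single line. The cells were kept for 48 h in DMEM medium, and every group received the solvent DMSO. The control had pH 7.4 (2 samples), the acidosis group had pH 6.6 without inhibitor (3 samples), and the SRPIN340 group had pH 7.4 with SRPIN340 at 10 µM (2 samples). SRPIN340 inhibits the SRPK kinases, which phosphorylate SR-rich splicing factors. The comparisons ask which transcripts change in acidified medium and which change when those kinases are inhibited at normal pH. Both use the same control samples.

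Poly(A) RNA was sequenced to 21788457 to 24110460 estimated counts per control or SRPIN340 library and to 21370143, 13615816 and 14870301 in acidosis. The acidosis libraries were also less even: their 100 most abundant genes held 24.06% to 24.81% of the counts, against 15.15% to 15.37% in the other 4. TMM scaling, which aligns the bulk of genes between libraries, therefore used factors of 0.782 to 0.800 in acidosis and 1.17 to 1.21 elsewhere. Scaled to total counts alone, the median of all genes in acidosis against control moved from a log2 fold change of -0.05 to -0.63. Levels below are CPM, the counts of a gene per 1000000 counts of the TMM-scaled total, and every log2 fold change is relative to that scaling unless the total count is named. In bulk RNA, fewer cells of a type and less RNA per cell cannot be told apart. The 7 lineage markers summed to 1421 to 1480 CPM in control and SRPIN340 libraries and to 3502 to 3517 CPM in acidosis. In acidosis VIM (log2 1.65), NEFM (log2 1.65), NEFL (log2 0.66) and KRT8 (log2 0.57) rose, and PAX2 (log2 -1.92, at 7.06 CPM or less throughout), INA (log2 -0.70) and KRT18 (log2 -0.26) fell. The 8 markers of other cell types summed to 38.8 to 47.6 CPM in control and SRPIN340 libraries and to 74.8 to 78.6 CPM in acidosis, nearly all from COL1A1 and CD68, with CD3E at 0. The part of these shifts in the results was not tested.

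EEF1A1 had the most counts of any gene in every library. It took 1.03% and 1.06% of all counts in control, 1.27% and 1.23% with SRPIN340, and 1.93%, 1.87% and 1.97% in acidosis. The 66 genes together held 2.85% and 2.98% of counts in control, 3.21% and 3.14% with SRPIN340, and 4.19%, 4.08% and 4.21% in acidosis. Without EEF1A1 the share was 1.82% and 1.92% in control, 1.94% and 1.91% with SRPIN340, and 2.26%, 2.21% and 2.25% in acidosis, so the acidosis libraries remained above the others. Per kilobase of the annotated main transcript, the highest levels in control were those of EEF1A1 (2529 CPM per kb), EEF1G (1008 CPM per kb), EEF2 (781 CPM per kb), the helicase EIF4A1 (639 CPM per kb) and EIF5A (507 CPM per kb). The length assigned to EEF1A1, 3512 bases, is long against the median of its transcripts, 1849 bases, so its level per length is a low estimate by that choice.

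Since TOP tracts sit at the first bases of an mRNA, the bases around the annotated start of 10 genes are printed here, 15 before and 15 after it, read 5′ to 3′ from RefSeq promoters on GRCh38.p14. Capitals mark a run that begins with a C at the annotated start and continues with at least 4 further C or T bases. The first 7 genes hold such a run and the last 3 do not.
EEF1A1, chr6:73521018-73521047, minus strand: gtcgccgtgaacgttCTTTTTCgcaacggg
EEF2, chr19:3985449-3985478, minus strand: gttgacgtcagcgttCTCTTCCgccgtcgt
EEF1B2, chr2:206159880-206159909, plus strand: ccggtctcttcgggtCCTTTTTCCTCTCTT
EIF4B, chr12:53006441-53006470, plus strand: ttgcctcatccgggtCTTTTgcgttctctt
EIF3F, chr11:7987322-7987351, plus strand: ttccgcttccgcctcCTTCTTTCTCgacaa
EIF4A2, chr3:186783562-186783591, plus strand: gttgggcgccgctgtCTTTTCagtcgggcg
EIF3M, chr11:32583816-32583845, plus strand: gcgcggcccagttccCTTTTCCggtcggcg
EIF1, chr17:41688870-41688899, plus strand: aggcaccgcccctctgccccagtcactgag
EEF1G, chr11:62573877-62573906, minus strand: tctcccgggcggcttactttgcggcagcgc
EEF2K, chr16:22206263-22206292, plus strand: tgcccgcccgcttctgctcaacctagacca

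In acidosis, the transcripts of elongation factors rose together, those of eIF1, eIF4A2, eIF1B and eIF4E rose most among the initiation factors, and the kinase and a methyltransferase that modify eEF2 fell. Of the 62 tested genes, 36 passed edgeR's quasi-likelihood test (adjusted p under 0.05 over all 14863 genes tested) with higher values in acidosis than in control, 13 with lower values, and 13 did not pass. Among all genes tested, 32.5% passed higher and 34.2% passed lower. A gene was called when it passed and its absolute log2 fold change exceeded 1. By that rule 18 translation factor genes were called higher (14.4% of all genes) and 4 were called lower (19.1% of all genes). The median log2 fold change was 0.45 for the 62 genes and -0.05 for all genes tested. Scaled to total counts, 23 passed higher (16.2% of all genes), 27 passed lower (55.0%), 4 were called higher (5.48%) and 8 lower (35.0%), with medians of -0.12 for the 62 and -0.63 for all genes. This scaling shifts all genes by about the same amount, and it took 17 of the 62 from above 0 to below it.

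**Figure D1:**
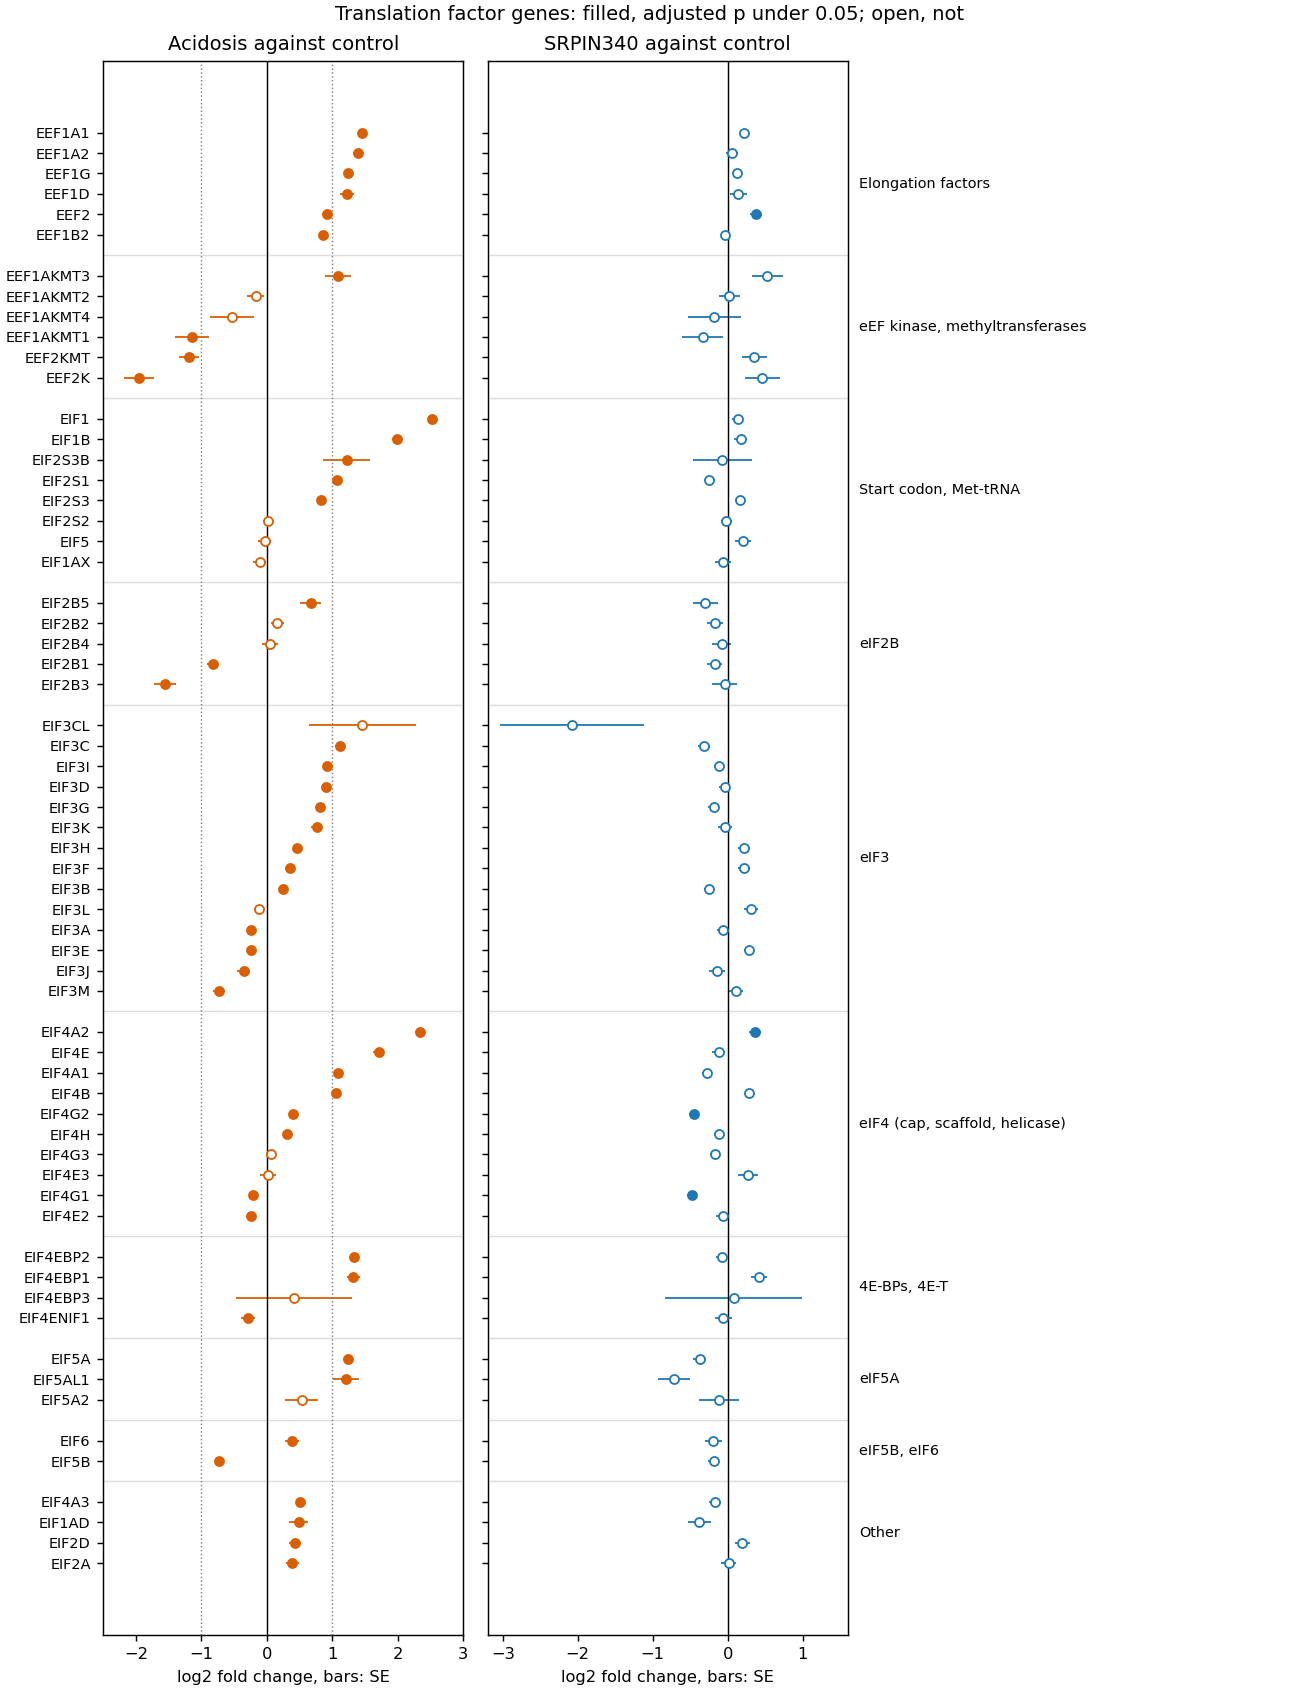
Log2 fold change (x axis) of the 62 tested genes, by role, in acidosis against control (left) and with SRPIN340 against control (right). Bars are the standard error, filled points passed the test, and dotted lines on the left mark a log2 fold change of 1 in either direction. All 6 elongation factors lie to the right in acidosis, from 0.86 to 1.46, and 4 points are filled with SRPIN340.

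All 6 elongation factor genes rose in acidosis. Their median log2 fold change was 1.23, and all 6 also passed higher when scaled to total counts (median 0.66). EEF1A1, which encodes the main tRNA-delivering factor, was at 8776 and 8988 CPM in control, 10497 and 10191 CPM with SRPIN340, and 24461, 23426 and 25160 CPM in acidosis. The 3 groups did not overlap, and the acidosis samples stood highest. The rise against control was 2.74-fold (log2 1.46, SE 0.047, adjusted p = 1.48e-08). EEF1A2, the isoform typical of muscle and neurons, was far less abundant, at 81.4 and 88.6 CPM in control and 216, 219 and 234 CPM in acidosis, yet it rose by a similar factor (log2 1.39, SE 0.0786, adjusted p = 3.18e-07).

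The subunits that recharge eEF1A rose as well. EEF1G was at 1405 and 1511 CPM in control, 1627 and 1538 CPM with SRPIN340, and 3470, 3363 and 3515 CPM in acidosis (log2 1.24, SE 0.0564, adjusted p = 9.12e-08). EEF1D was at 103 and 126 CPM in control and 284, 246 and 269 CPM in acidosis (log2 1.22, SE 0.108, adjusted p = 6.22e-06). For both genes the lowest acidosis sample lay above every other sample. EEF1B2, the catalytic subunit, rose less, from 317 and 318 CPM to 574, 566 and 592 CPM (log2 0.86, SE 0.0579, adjusted p = 9.65e-07), and is not called by the fold limit. EEF2, the translocation factor, was at 2251 and 2684 CPM in control, 3182 and 3200 CPM with SRPIN340, and 4830, 4466 and 4732 CPM in acidosis. Its groups did not overlap, with SRPIN340 between the others, and its rise in acidosis was 1.90-fold (log2 0.92, SE 0.0747, adjusted p = 3.38e-06). EEF2 was called when the second control sample was left out. The start windows of EEF1A1, EEF2 and EEF1B2 printed above hold a C-led pyrimidine run, and that of EEF1G does not.

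**Figure D2:**
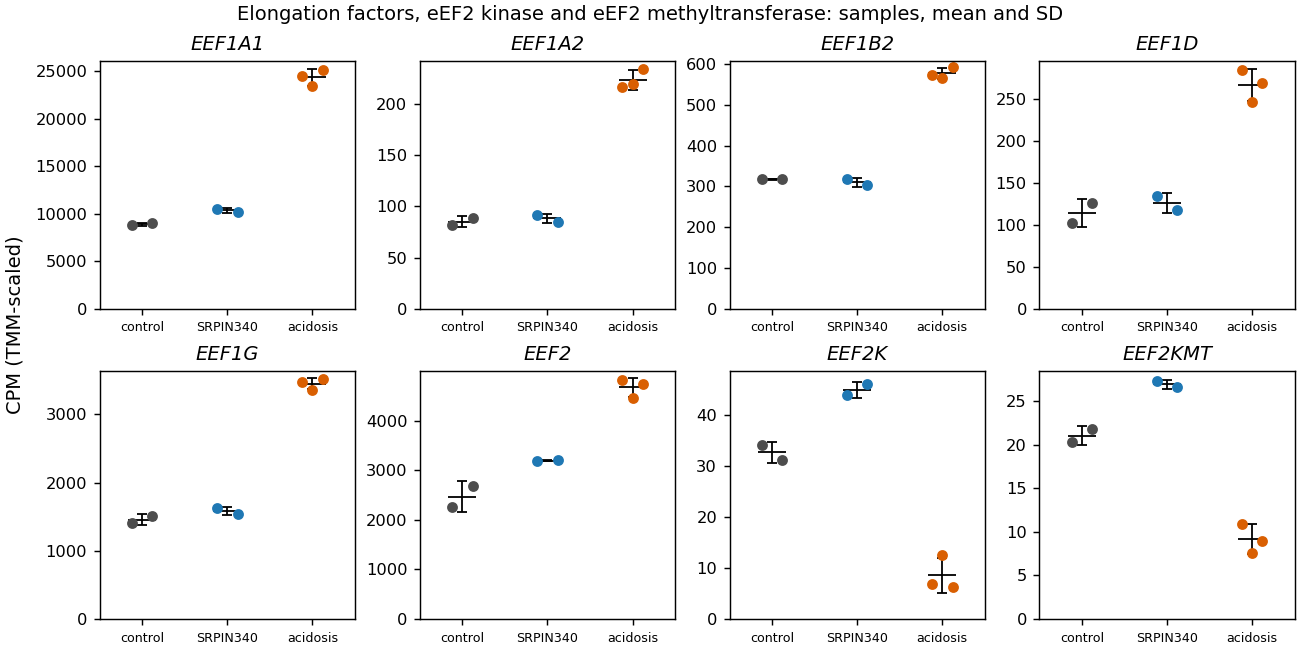
CPM (y axis, TMM-scaled, from 0) of the 6 elongation factor genes, the eEF2 kinase gene and the eEF2 methyltransferase gene in control (grey), SRPIN340 (blue) and acidosis (orange) samples, with the mean and SD. The acidosis samples are the highest for the elongation factors (EEF1A1 at 23426 to 25160 CPM) and the lowest for EEF2K (6.36 to 12.5 CPM) and EEF2KMT (7.53 to 10.9 CPM).

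The genes that modify elongation factors moved in the other direction more often. Of 6 tested, 1 passed higher, 3 passed lower and 2 did not pass, with a median log2 fold change of -0.84. By total counts, 1 passed higher and 5 lower, with a median of -1.41. EEF2K, the kinase that inactivates eEF2, was at 34.2 and 31.2 CPM in control, 43.9 and 46.1 CPM with SRPIN340, and 6.77, 12.5 and 6.36 CPM in acidosis. The acidosis samples lay below all others, and the fall against control was 3.88-fold (log2 -1.96, SE 0.23, adjusted p = 4.31e-05). EEF2KMT, the methyltransferase of eEF2, fell from 20.2 and 21.8 CPM to 10.9, 7.53 and 8.94 CPM (log2 -1.19, SE 0.159, adjusted p = 0.000105). Among the methyltransferases of eEF1A, EEF1AKMT1 fell (log2 -1.15, SE 0.26, adjusted p = 0.00318) and EEF1AKMT3 rose (log2 1.09, SE 0.20, adjusted p = 0.000842), both at 12.0 CPM or less in every sample. The call of EEF1AKMT1 was lost without acidosis replicate 3, and that of EEF1AKMT3 without control replicate 2. EEF1AKMT2 (log2 -0.17) and EEF1AKMT4 (log2 -0.53) did not pass, though both passed lower when scaled to total counts.

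Among the factors of start codon choice and initiator tRNA delivery, 5 of 8 tested genes rose in acidosis and none fell, with a median log2 fold change of 0.95. Scaled to total counts, 4 of the 8 passed higher and 3 lower, with a median of 0.38. EIF1, which keeps the scanning ribosome open until a start codon is met, showed the largest rise of the 62 genes. It was at 358 and 387 CPM in control, 414 and 403 CPM with SRPIN340, and 2180, 2004 and 2261 CPM in acidosis. The acidosis samples were all far above the other 4, a 5.77-fold rise (log2 2.53, SE 0.0723, adjusted p = 8.31e-09) that remained at log2 1.95 when scaled to total counts. Its paralog EIF1B rose 3.98-fold, from 31.8 and 30.9 CPM to 121, 126 and 127 CPM (log2 1.99, SE 0.0823, adjusted p = 5.08e-08).

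The 3 subunits of eIF2 did not move alike. EIF2S1, the alpha subunit that stress kinases phosphorylate, was at 136 and 125 CPM in control and 290, 267 and 269 CPM in acidosis (log2 1.08, SE 0.0727, adjusted p = 1e-06), and its call was lost without control replicate 2. EIF2S3, the GTP-binding gamma subunit, rose by a log2 fold change of 0.83 (SE 0.064, adjusted p = 2.38e-06). EIF2S2, the beta subunit, was at 174 and 171 CPM in control and 166, 174 and 182 CPM in acidosis, overlapping groups with a log2 fold change of 0.01 (SE 0.0695, adjusted p = 0.917), or -0.57 and passing lower when scaled to total counts. EIF2S3B, a near copy of EIF2S3 with which it may share reads, was at 2.09 and 1.37 CPM in control and 4.81, 4.32 and 2.92 CPM in acidosis (log2 1.22, SE 0.363, adjusted p = 0.0137). It did not pass when scaled to total counts or without control replicate 2. The start windows of EIF2S3 and EIF2S3B hold the same run. EIF1AX (log2 -0.11) and EIF5 (log2 -0.04), the partner that triggers GTP hydrolysis by eIF2, did not pass, and both passed lower when scaled to total counts.

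The 5 subunits of eIF2B, the exchange factor that recharges eIF2 and the target of the integrated stress response, did not move alike: 1 passed higher, 2 lower and 2 did not pass, with a median log2 fold change of 0.04. With total counts as the scale, 0 passed higher and 4 lower, with a median of -0.53. EIF2B3, the gamma subunit, was at 39.0 and 39.2 CPM in control, 39.1 and 36.9 CPM with SRPIN340, and 14.2, 9.82 and 15.7 CPM in acidosis. Every acidosis sample lay below the other 4, a 2.94-fold fall (log2 -1.56, SE 0.164, adjusted p = 2.06e-05). EIF2B1, the alpha subunit, fell from 66.6 CPM in both control samples to 37.2, 39.8 and 35.6 CPM (log2 -0.83, SE 0.0909, adjusted p = 2.69e-05). EIF2B5, the catalytic subunit, rose by a log2 fold change of 0.67 (SE 0.155, adjusted p = 0.00363), which became 0.09 and did not pass when scaled to total counts. EIF2B2 (log2 0.16) and EIF2B4 (log2 0.04) did not pass, and both passed lower when scaled to total counts (log2 -0.42 and -0.53).

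The 14 subunits and relatives of eIF3, the large scaffold on the small ribosomal subunit, had 8 genes that passed higher, 4 that passed lower and 2 that did not pass, with a median log2 fold change of 0.41. Scaled to total counts, 4 passed higher and 7 lower, with a median of -0.17. EIF3C rose most of those that passed, from 705 and 749 CPM in control to 1510, 1718 and 1499 CPM in acidosis (log2 1.12, SE 0.0776, adjusted p = 1.21e-06). Its near-identical copy EIF3CL was at 14.2 and 38.1 CPM in control, 0 and 12.5 CPM with SRPIN340, and 69.5, 91.4 and 55.1 CPM in acidosis, and how reads were divided between the copies is uncertain. Their summed level, which does not depend on that division, was 719 and 787 CPM in control, 610 and 568 CPM with SRPIN340, and 1580, 1809 and 1554 CPM in acidosis, with no overlap.

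EIF3I (log2 0.92), EIF3D (log2 0.91), EIF3G (log2 0.82) and EIF3K (log2 0.76) rose, each with acidosis samples above all others. Scaled to total counts, EIF3I, EIF3D and EIF3G still passed higher (log2 0.34, 0.33 and 0.24), and EIF3K did not pass (log2 0.19). EIF3H (log2 0.47), EIF3F (log2 0.35) and EIF3B (log2 0.25) rose less, and their log2 fold changes were -0.11, -0.23 and -0.33 when scaled to total counts. EIF3M fell most, from 176 and 146 CPM in control to 97.5, 101 and 92.8 CPM in acidosis (log2 -0.73, SE 0.0877, adjusted p = 5.01e-05), and it was called lower when scaled to total counts (log2 -1.30). EIF3J (log2 -0.36), EIF3A (log2 -0.24) and EIF3E (log2 -0.24) fell less, and EIF3A, EIF3B and EIF3J did not pass without control replicate 1. EIF3L was at 361 and 419 CPM in control and 383, 324 and 373 CPM in acidosis (log2 -0.11, adjusted p = 0.274).

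The cap-binding, scaffold and helicase factors of the eIF4 family had 10 tested genes, of which 6 passed higher and 2 lower, with a median log2 fold change of 0.35. Scaled to total counts, 4 passed higher and 6 lower, with a median of -0.22. EIF4A2, a DEAD-box helicase that unwinds the 5′ end of mRNAs, was at 116 and 117 CPM in control, 151 and 150 CPM with SRPIN340, and 622, 544 and 611 CPM in acidosis. Its 3 groups did not overlap, and the acidosis samples lay 5.07-fold above control (log2 2.34, SE 0.0765, adjusted p = 1.57e-08). EIF4E, the cap-binding protein itself, was at 63.5 and 73.0 CPM in control, 61.3 and 64.3 CPM with SRPIN340, and 217, 223 and 228 CPM in acidosis (log2 1.71, SE 0.0833, adjusted p = 1.36e-07). EIF4E and EIF4A2, with EIF1 and EIF1B, were the 4 genes still called higher when scaled to total counts, at log2 fold changes of 1.13 and 1.77.

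EIF4A1, the main helicase paralog, was at 1088 and 1160 CPM in control, 929 and 924 CPM with SRPIN340, and 2501, 2255 and 2394 CPM in acidosis (log2 1.08, SE 0.0612, adjusted p = 3.16e-07). It shares exons with the read-through gene SENP3-EIF4A1, so the division of reads between them is uncertain. EIF4B, a helicase cofactor with a C-led run at its start, rose from 455 and 449 CPM to 901, 986 and 925 CPM (log2 1.05, SE 0.0592, adjusted p = 3.14e-07). The scaffold genes had smaller changes. EIF4G1, the main scaffold, fell from 674 and 680 CPM to 615, 563 and 580 CPM (log2 -0.21, SE 0.058, adjusted p = 0.00986), EIF4G2 rose by a log2 fold change of 0.40 that turned to -0.17 when scaled to total counts, and EIF4G3 did not pass (log2 0.06, or -0.51 and passing lower when scaled to total counts). EIF4E2, a repressive cap-binding paralog, was at 91.9 and 90.9 CPM in control and 76.4, 79.0 and 75.6 CPM in acidosis (log2 -0.25, SE 0.0791, adjusted p = 0.0193), and did not pass without control replicate 1. EIF4H rose by a log2 fold change of 0.31 (-0.27 scaled to total counts), and EIF4E3 did not pass (log2 0.01, or -0.56 and passing lower when scaled to total counts).

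**Figure D3:**
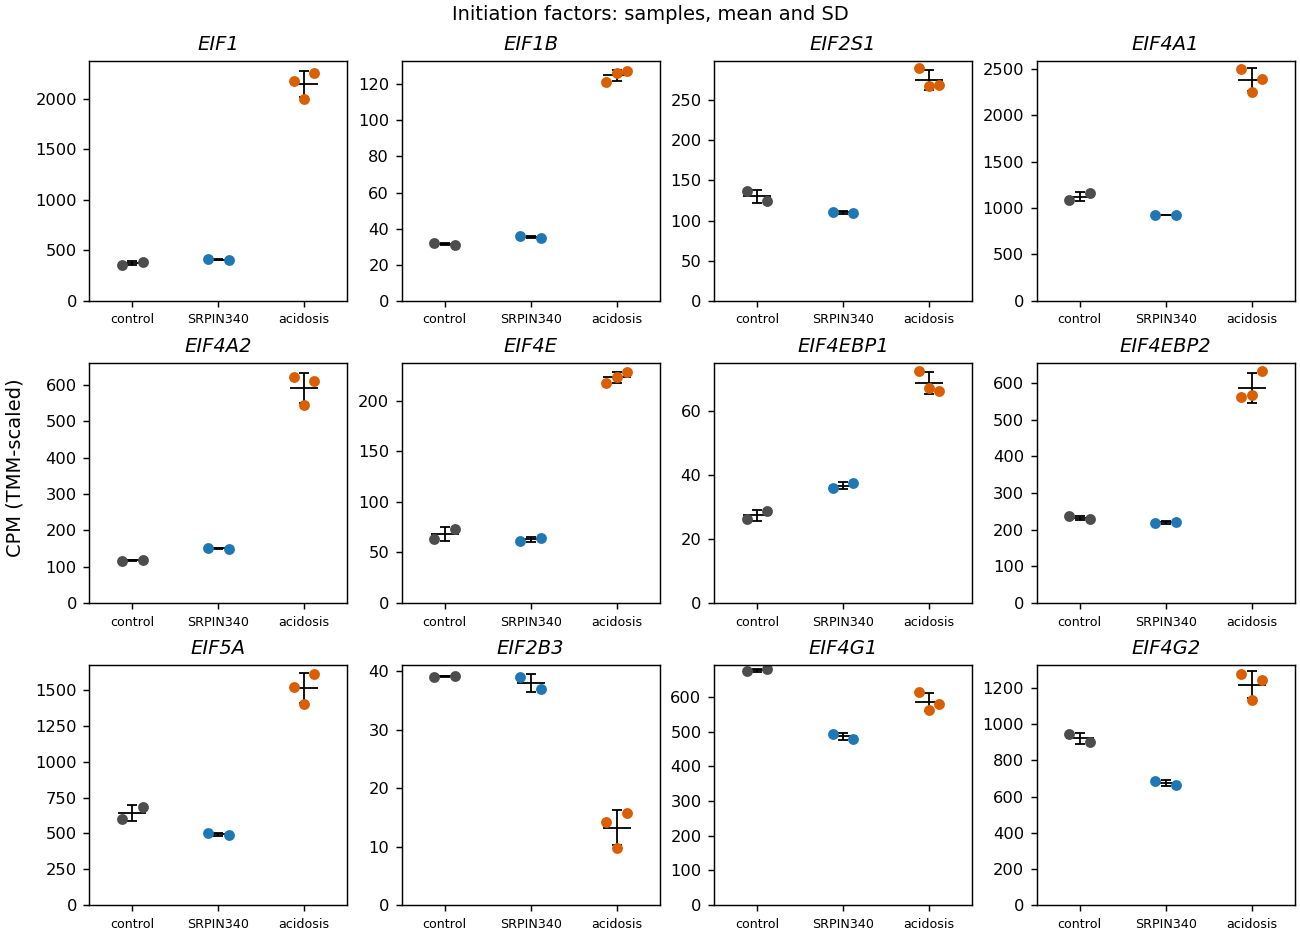
CPM (y axis, TMM-scaled, from 0) of 12 initiation and eIF5A genes in control (grey), SRPIN340 (blue) and acidosis (orange) samples, with the mean and SD. Acidosis samples are far above the others for EIF1 (2004 to 2261 CPM) and EIF4A2 (544 to 622 CPM) and below them for EIF2B3 (9.82 to 15.7 CPM), and the SRPIN340 samples are the lowest for EIF4G1 and EIF4G2.

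Of the 4 genes for eIF4E inhibitors and its transporter, 2 rose and 1 fell in acidosis, with a median log2 fold change of 0.87. EIF4EBP1, a 4E-binding protein that mTOR phosphorylates, was at 26.3 and 28.7 CPM in control, 35.9 and 37.4 CPM with SRPIN340, and 72.6, 67.1 and 66.2 CPM in acidosis (log2 1.32, SE 0.0975, adjusted p = 1.78e-06). EIF4EBP2 was at 236 and 228 CPM in control, 217 and 222 CPM with SRPIN340, and 561, 566 and 633 CPM in acidosis (log2 1.34, SE 0.0714, adjusted p = 2.37e-07). Both had acidosis samples above all others, and both still passed higher when scaled to total counts (log2 0.75 and 0.76). EIF4ENIF1, which carries eIF4E into the nucleus, fell slightly (log2 -0.29, SE 0.104, adjusted p = 0.0323), and this was lost with DESeq2 and without acidosis replicate 2, acidosis replicate 3 or control replicate 1. EIF4EBP3 did not exceed 0.602 CPM in any sample.

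EIF5A, the hypusine-bearing factor that helps ribosomes through difficult sequences, was at 601 and 681 CPM in control, 502 and 485 CPM with SRPIN340, and 1523, 1407 and 1613 CPM in acidosis. The SRPIN340 samples were the lowest and the acidosis samples the highest, with a rise in acidosis of 2.36-fold (log2 1.24, SE 0.0779, adjusted p = 6.32e-07). EIF5AL1, a near copy of EIF5A whose counts may come from shared reads, had a log2 fold change of 1.20 (SE 0.195, adjusted p = 0.000383), and was not called without control replicate 2. EIF5A2 was at 12.0 and 21.8 CPM in control and 24.1, 23.1 and 26.0 CPM in acidosis and did not pass (log2 0.53, adjusted p = 0.0852). EIF5B, the GTPase that joins the ribosomal subunits, fell from 345 and 325 CPM to 194, 215 and 199 CPM (log2 -0.73, SE 0.0674, adjusted p = 8.51e-06). EIF6, which keeps free large subunits apart from small ones, rose by a log2 fold change of 0.39 (adjusted p = 0.00972), which was lost without control replicate 1 and turned to -0.19 when scaled to total counts. The remaining 4 genes, EIF2A, EIF2D, EIF1AD and the exon junction helicase EIF4A3, passed higher at log2 fold changes of 0.39 to 0.51, and none of the 4 passed when scaled to total counts. EIF1AD also did not pass without either control sample.

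Of 10 genes listed as bearing a TOP tract (EEF1A1, EEF1A2, EEF1B2, EEF1D, EEF1G, EEF2, EIF3E, EIF3F, EIF3H and EIF4B), 9 passed higher in acidosis (32.5% of all genes) and EIF3E passed lower (34.2% of all genes). Their median log2 fold change was 0.99, against 0.40 for the 52 other tested factors and -0.05 for all genes tested. The 52 had 27 passing higher and 12 lower. On the total-count scale, 7 of the 10 passed higher (16.2% of all genes) and 2 lower (55.0%), with a median of 0.41. The 52 then had 16 passing higher, 25 lower and a median of -0.18. The list holds the 6 elongation factors, so the elongation factors and the TOP list share most of their values. The 6 had a median log2 fold change of 1.23. The other genes of the list were at 1.05 (EIF4B), 0.47 (EIF3H), 0.35 (EIF3F) and -0.24 (EIF3E). By total counts these were 0.48, -0.11, -0.23 and -0.81.

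The start windows gave a related but different division. Of the 66 genes, 53 had an entry in the set of RefSeq promoters used here, and 49 of these were tested. Those without an entry include EEF1A2, EEF1D, EIF3E and EIF3H, so the windows cover only part of the TOP list. A missing entry is a gap in that set and does not mean that the gene lacks a promoter. Of the 49, 13 (26.5%) held the C-led run at an annotated start, against 7.15% of all tested genes with an entry. Of the 35116 promoter entries, 4.07% hold it. EEF1B2 and EIF2S3B each have a second entry without the run. Besides the 7 printed, they were EIF2A, EIF2D, EIF2S3, EIF2S3B, EIF3D and EIF3K. In acidosis 12 of the 13 passed higher, EIF3M passed lower and 4 were called higher, with a median log2 fold change of 0.86. The 36 tested genes whose promoters lack the run had 18 passing higher, 8 lower and a median of 0.35. Scaled to total counts, 7 of the 13 passed higher and 2 lower (EIF3F and EIF3M) with a median of 0.29, against 11 higher, 19 lower and a median of -0.23 for the 36. Over all genes tested, the median was 0.09 for 846 genes with the run and -0.06 for 10984 without. Of the 846, 337 passed higher, 257 passed lower and 161 were called higher. The 10984 had 3608 passing higher, 3852 passing lower and 1548 called higher. EIF1 and EIF4E, among the largest rises, have no such run at the annotated start, and EIF4A2 has one. The annotated start is 1 position per promoter entry, and start positions in these cells were not measured.

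The balance between paralogs differed between groups. Taking levels per kilobase, EIF4A1 held 91.2% ± 0.317 (SD, n = 2) of EIF4A1 plus EIF4A2 in control, 86.9% ± 0.0402 (SD, n = 2) with SRPIN340 and 81.2% ± 0.421 (SD, n = 3) in acidosis, with no overlap. EIF4E held 22.9% ± 1.88 (SD, n = 2) of EIF4E plus EIF4E2 in control, 22.4% ± 1.91 (SD, n = 2) with SRPIN340 and 53.6% ± 0.917 (SD, n = 3) in acidosis. This share depends on the transcript length assigned to each gene: by the median length of the annotated transcripts it was 52.8%, 52.1% and 81.3%. The more abundant helicase and the cap-binding protein differed in direction, with EIF4A1 holding a smaller share and EIF4E a larger one in acidosis.

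Smaller differences were seen in the other pairs. EIF1 held 82.6% and 84.1% of EIF1 plus EIF1B in control and 88.3%, 87.0% and 88.2% in acidosis. EIF4EBP1 held 50.2% and 53.2% of EIF4EBP1 plus EIF4EBP2 in control, 59.9% and 60.5% with SRPIN340, and 54.0%, 51.8% and 48.6% in acidosis, where it overlapped control. EIF4G1 held 74.7% ± 0.747 (SD, n = 2) of EIF4G1 plus EIF4G3 in control, 70.5% ± 1.68 (SD, n = 2) with SRPIN340 and 71.0% ± 0.859 (SD, n = 3) in acidosis. EEF1A1 held 98.1% to 98.4% of EEF1A1 plus EEF1A2, and EIF5A 99.1% to 99.6% of EIF5A plus EIF5A2, over all samples. The shares are descriptions and were not tested.

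**Figure D4:**
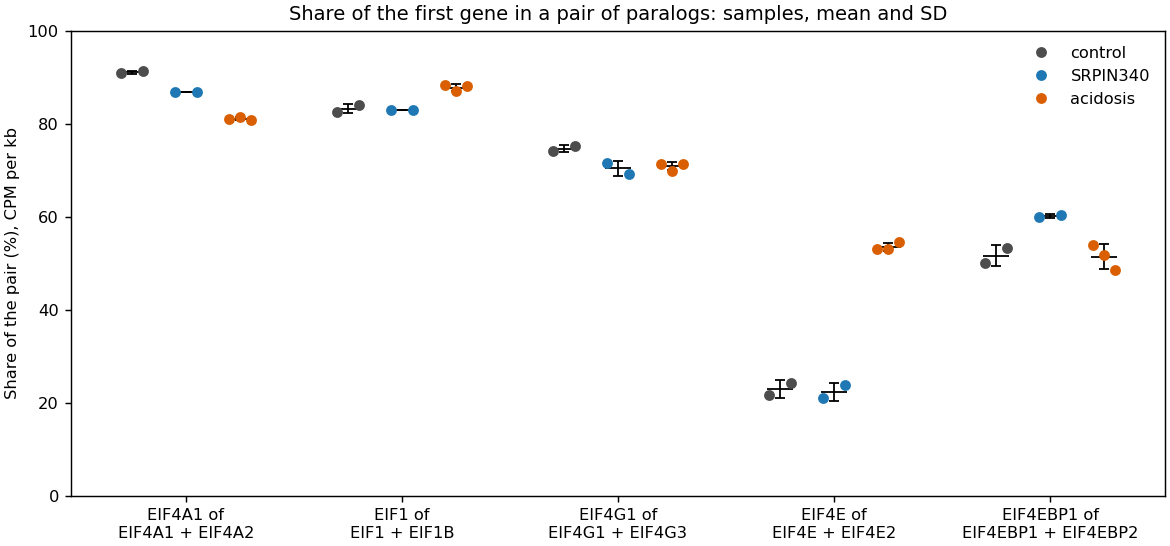
Share (y axis, percent of the summed CPM per kb) of the first gene in 5 pairs of paralogs, in control (grey), SRPIN340 (blue) and acidosis (orange) samples, with the mean and SD. EIF4E holds 53.0% to 54.6% of its pair in acidosis and 21.0% to 24.2% in the other samples, and EIF4A1 holds less of its pair in acidosis (80.8% to 81.6%) than in control (90.9% and 91.4%).

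With SRPIN340 at normal pH few translation factor genes passed the test. EEF2 and EIF4A2 passed higher, where 0.767% of all genes did, and EIF4G1 and EIF4G2 passed lower, where 1.53% did. Of the 62, 0 were called in either direction, against 0.128% of all genes higher and 0.195% lower. In all, 25 had a log2 fold change above 0 and 37 below, with a median of -0.06. Of all 14863 genes, 7498 were above 0 and 7356 below, with a median of 0.00. In edgeR 23 of the 62 had an unadjusted p under 0.05 (17.6% of all genes), of which 0 exceeded the fold limit. DESeq2 gave 57 of the 62 an adjusted p, passed 14 and called 0, and it passed 8.63% of all genes to which it gave an adjusted p.

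EIF4G1 was at 674 and 680 CPM in control and 493 and 479 CPM with SRPIN340, a 1.39-fold fall (log2 -0.48, SE 0.0638, adjusted p = 0.00831). EIF4G2, an eIF4G relative of non-canonical initiation, was at 945 and 902 CPM in control and 686 and 664 CPM with SRPIN340 (log2 -0.45, SE 0.070, adjusted p = 0.0181). EEF2 was higher with SRPIN340 by a log2 fold change of 0.37 (SE 0.0796, adjusted p = 0.0488), and EIF4A2 by 0.36 (SE 0.0773, adjusted p = 0.048). Groups did not overlap for any of these 4 genes, nor for EIF2B2, EIF4E3 and EIF5, which did not pass. With 2 samples in each group, such separation alone says little. All 4 missed the limit when either SRPIN340 sample or control replicate 1 was left out, and EIF4A2, EIF4G1 and EIF4G2 also without control replicate 2. Over the alternatives tried, the adjusted p ran from 3.18e-09 to 0.132 for EIF4G1, from 1.77e-06 to 0.210 for EIF4G2, from 0.00154 to 0.289 for EEF2 and from 0.0018 to 0.286 for EIF4A2.

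Just outside the limit stood EIF5A, lower with SRPIN340 by a log2 fold change of -0.38 (adjusted p = 0.0506, from 0.00112 to 0.332 over the alternatives), EIF4B at 0.29 (adjusted p = 0.0516) and EEF1A1 at 0.22 (adjusted p = 0.053). Of the 10 TOP genes, 9 had log2 fold changes above 0 with SRPIN340, with a median of 0.22 and EEF2 as the gene that passed. The eIF2B and eIF5A groups (5 and 3 genes), with EIF5B and EIF6, had all their log2 fold changes below 0, and none of these passed. Of the 62 genes, 37 were below 0 and 25 above, and of all genes tested 7356 and 7498.

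Set side by side, with the shared control samples in mind, EIF4G2 was higher than control in acidosis (log2 0.40) and lower with SRPIN340 (log2 -0.45), while EIF4G1 was lower in both (log2 -0.21 and -0.48). This contrast depends on the scaling: by total counts EIF4G2 also passed lower in both (log2 -0.17 and -0.41). EIF5A was at log2 1.24 in acidosis and -0.38 with SRPIN340, EEF2K at -1.96 and 0.46 and EEF2KMT at -1.19 and 0.36, where the values with SRPIN340 did not pass. The test of acidosis against SRPIN340 gave these differences directly: EIF4G2 was higher in acidosis (log2 0.85, SE 0.0655, adjusted p = 2.33e-06), as was EIF5A (log2 1.62, SE 0.0793, adjusted p = 1.44e-07), and EEF2K was lower (log2 -2.42, SE 0.229, adjusted p = 9.54e-06). EIF4G1 was higher in acidosis than with SRPIN340 (log2 0.27, adjusted p = 0.00247), which turned to -0.35 when scaled to total counts.

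In that comparison 40 of the 62 genes passed higher in acidosis (32.8% of all genes) and 10 passed lower (35.0% of all genes). By the fold limit, 18 were called higher (14.9% of all genes) and 3 lower (19.7% of all genes), with a median log2 fold change of 0.56 against -0.05 for all genes. The 3 called lower were EEF2K, EEF2KMT and EIF2B3. EIF3G (log2 1.01), EIF3I (log2 1.04) and EIF3CL were called higher here and not against control, and the call of EIF3G was lost when any of acidosis replicate 1, SRPIN340 replicate 2 or either control sample was left out. The value of EIF3CL, log2 3.54, rests on SRPIN340 samples at 0 and 12.5 CPM and on the uncertain division of reads with EIF3C.

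Other genes of translation were read beside these factors. Of 55 listed, 28 passed higher in acidosis (32.5% of all genes), 15 passed lower (34.2%) and 12 did not pass. By the fold limit 14 were called higher (14.4%) and 7 lower (19.1%), and the median log2 fold change was 0.17. By total counts, 16 passed higher, 31 passed lower, 5 were called higher and 13 lower, with a median of -0.41. PPP1R15A, the stress-induced phosphatase subunit that restores eIF2, was at 47.7 and 43.3 CPM in control and 2146, 2137 and 2176 CPM in acidosis (log2 5.57, SE 0.0816, adjusted p = 2.48e-10). Its constitutive relative PPP1R15B was called higher too (log2 2.47), as was EIF2AK3, the endoplasmic reticulum kinase of eIF2 (log2 1.73). EIF2AK1 and EIF2AK2, the heme and double-stranded RNA kinases of eIF2, fell (log2 -0.41 and -0.52), and EIF2AK4, the amino acid sensor, rose (log2 0.42). MTOR fell from 220 CPM in both control samples to 116, 133 and 140 CPM (log2 -0.77, adjusted p = 2.7e-05) and was not called. RPTOR did not pass (log2 -0.0055), RPS6KB1 fell (log2 -0.31) and RPS6KB2 rose (log2 0.94). Of the 12 listed kinases and phosphatases of translation factors, 5 passed higher and 4 lower, or 4 and 7 when scaled to total counts. By total counts, 16.2% of all genes passed higher and 55.0% lower.

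Of 7 poly(A)-binding proteins and partners, 5 passed higher and 0 lower, with a median log2 fold change of 1.33. Scaled to total counts, 4 passed higher and 3 lower, with a median of 0.75. PAIP2, which takes PABP away from the mRNA, rose from 124 and 112 CPM to 492, 505 and 525 CPM (log2 2.10), and PABPC1 (log2 1.55), PABPC4 (log2 1.51) and PAIP2B (log2 1.33) were also called higher. The helicase DDX3X rose from 836 and 822 CPM to 3279, 3093 and 3236 CPM (log2 1.95, adjusted p = 8.3e-09). PDCD4, an inhibitor of eIF4A, fell from 161 and 142 CPM to 30.2, 30.1 and 31.6 CPM (log2 -2.31, adjusted p = 2.55e-08), and the nuclear cap-binding gene NCBP1 fell too (log2 -1.60). The 7 helicases and cap partners had 3 passing higher and 3 lower, or 1 and 5 when scaled to total counts. Among all genes tested, 32.5% passed higher and 34.2% lower, or 16.2% and 55.0% by total counts.

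The enzymes that make hypusine on eIF5A, DHPS (log2 1.24) and DOHH (log2 1.18), were both called higher. Of the 7 genes for diphthamide, the modified residue of eEF2, DPH3 (log2 1.50) and DPH7 (log2 1.08) were called higher and DPH5 (log2 -1.09) and DPH6 (log2 -1.40) lower. The mitochondrial factors had 4 of 9 genes passing higher and 3 lower, or 1 and 6 when scaled to total counts. The shares of all genes were 32.5% and 34.2%, or 16.2% and 55.0% by total counts. The elongation factor TUFM was called higher (log2 1.35), while its exchange factor TSFM (log2 -2.18) and the initiation factor MTIF2 (log2 -1.90) were called lower. EEFSEC, which delivers selenocysteine, was called lower (log2 -1.38), and the TOP gene TPT1 higher (log2 1.17). Of 8 termination and recycling genes, 5 passed higher and 2 lower, or 1 and 4 when scaled to total counts, and 0 were called. With SRPIN340 0 of the 55 passed in edgeR, 10 had an unadjusted p under 0.05, and DESeq2 passed PDCD4 and TPT1. PDCD4 was at a log2 fold change of -0.34 (edgeR adjusted p = 0.0816).

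Transcript length and level were weakly related to the change in acidosis. Across the 62 genes, Spearman's rho of the log2 fold change was -0.22 with transcript length and 0.26 with the mean level per length, against -0.083 and 0.11 across all genes. These are descriptions across genes of the same libraries, which are not independent replicates. Of the tested genes, 10 overlap another coding gene on the same strand and 23 on the other strand. Whether the counting used strand is not given in the sources used here, so reads of such neighbours may not be fully told apart.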

How the data were processed

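Poly(A) RNA of 7 HEK-293 samples was sequenced. The authors trimmed the reads (Trimmomatic 0.39 and Trim Galore 0.6.6, per the submitters' processing notes), ran Salmon 1.5.1 on a Gencode transcriptome of GRCh38 and used tximport to sum transcripts by gene. They deposited these sums as estimated counts, unscaled between samples, without naming the tximport setting.

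Tests ran on rounded counts in edgeR 4.0.16 under R 4.3.3 (TMM, filterByExpr, quasi-likelihood test, all 7 samples in one fit, Benjamini-Hochberg adjustment over 14863 genes). A gene passed at an adjusted p under 0.05 and was called when its absolute log2 fold change also exceeded 1. The standard error came from the test statistic. The fitting code was run on simulated counts in which few genes changed, equally up and down. Those counts had no difference in evenness like that of acidosis, so the scaling was not tested there. Alternatives were DESeq2 1.42.0, RLE size factors, total counts alone, other filters, only the groups compared, a replicate block, a fold limit of 0.5 and each sample left out in turn. Symbols, transcript lengths and overlaps came from GENCODE release 44 (19977 of 19978 identifiers matched), and start windows from RefSeq promoters (250 bases before to 50 after a start).

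The genes, roles, TOP list, paralog pairs and other lists were chosen with earlier results of these data known. Named genes were those called in any comparison, the extremes of each role, the paralog pairs, the 5 smallest p with SRPIN340 and the 5 highest levels per length in control, and other members were added to complete each role. Of the other translation genes, those called in acidosis were named. The eIF2 kinases, MTOR, RPTOR, RPS6KB1 and RPS6KB2 were chosen after their values were seen. Samples are numbered as repeats, and the methods speak of biological repeats without saying whether numbers mark shared cultures, so p-values measure the spread between these samples.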

Additional observations from a re-analysis of the deposited data

How the results depend on the processing

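Scaling to total counts changed the most. In acidosis against control it gave 23 members passing higher, 27 passing lower, 4 called higher and 8 called lower, and against SRPIN340 it gave 22, 28, 7 and 9. It took 17 of the 62 log2 fold changes from above 0 to below it against control, 10 of which had passed higher, and 15 against SRPIN340, 11 of which had passed higher. Among the genes named by the rule were EIF2A (-0.19), EIF4A3 (-0.063), EIF4G2 (-0.17), EIF4G3 (-0.51) and EIF6 (-0.19) in acidosis against control, and EEF2 (-0.064) and EIF4G1 (-0.35) in acidosis against SRPIN340, on the log2 scale. A fold limit of 0.5 gave 7 called lower against control, and 32 called higher and 8 lower against SRPIN340. With SRPIN340 against control, 2 passed higher and 2 lower. The counts passing higher were 7 with DESeq2, 1 with RLE size factors, 5 with a minimum of 6 CPM, 4 without a filter, 4 with only the groups compared and 5 with total counts. The counts passing lower were 7 with DESeq2, 4 with a minimum of 6 CPM and 5 with only the groups compared. With the replicate block 0 passed higher and 0 lower. The difference between replicates 1 and 2 was not shared between groups (correlations of 0.0051, -0.101 and 0.0604). These values cannot tell whether same-numbered samples shared a culture or day, which is not stated. In acidosis against control the block left 35 passing higher, 10 passing lower, 18 called higher and 3 called lower.

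Leaving out 1 sample at a time gave, in acidosis against control, 33 to 37 passing higher, 9 to 13 passing lower, 16 to 19 called higher and 3 to 4 called lower. In acidosis against SRPIN340 the ranges were 35 to 39, 8 to 13, 16 to 19 and 3 to 3. With SRPIN340 against control they were 0 to 4 passing higher, 0 to 5 passing lower, 0 to 0 called higher and 0 to 1 called lower. Leaving out either SRPIN340 sample or control replicate 1 lost EEF2, EIF4A2, EIF4G1 and EIF4G2, leaving out control replicate 2 lost EIF4A2, EIF4G1 and EIF4G2, and leaving out acidosis replicate 1 or 3 lost EEF2 and EIF4A2. The cause was not tested. DESeq2, RLE size factors and both filters kept the counts of acidosis against control within 1.5 times. Acidosis libraries 2 and 3 were the shallowest, so genes of low level are measured least precisely there.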
